A study of Mus musculus with 50 samples.

Results

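Among CpG clusters of middle density in mouse soleus, 3723 were fully methylated in wild-type (WT) muscle, with a mean methylation level over the 21 WT samples of 85% or more. They were chosen from the 14946 clusters with 10 to 29 CpGs, out of 51038 clusters in the table. The level of a cluster in a sample was the share of methylated calls among all calls summed over its covered CpGs, in percent. Because the WT values chose the clusters, their WT levels and any contrast with WT in the same samples are given as descriptions. Tests of the level were kept for other choices of clusters and for contrasts that this choice did not use, such as those between times.

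The method was reduced representation bisulfite sequencing, in which MspI cuts DNA at CCGG and bisulfite converts unmethylated cytosines before the reads are made. The tissue was soleus, a calf muscle rich in slow fibres, from C57BL/6 mice. Mice of both genotypes carried floxed Dnmt3a alleles. The mD3AKO mice also carried Cre under the promoter of muscle creatine kinase (mCK-Cre), which is switched on late in muscle differentiation, so satellite cells and non-muscle cells of the tissue keep the gene and their share of the nuclei was not measured here. Males and females 12 weeks old were killed at 10, 30 or 60 min after 30 min of treadmill running, or after the same time on a treadmill arena that did not move (rest). There were 21 WT samples (5 at rest, then 5, 5 and 6 by time after running) and 23 mD3AKO samples (5 at rest, then 5, 7 and 6), each from the soleus of 1 animal. Samples at rest and 60 min were numbered 1 to 25 and those at 10 and 30 min 26 to 50, so the comparisons of 10 or 30 min with rest cannot be told apart from a difference between these sets of numbers. The 44 libraries held 12819404 to 41285655 calls each, and the median member held 84 to 397 calls in a library.

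DNA methylation in mammals is set mainly on the cytosine of CpG dinucleotides. DNMT3A and DNMT3B are the de novo methyltransferases, which add methyl groups to unmethylated sites, whereas DNMT1, with UHRF1, copies the pattern to the new strand after replication, and TET enzymes oxidise the mark. Most CpGs outside promoters and CpG islands carry methylation in most cells of a tissue, including those in gene bodies and in transposable elements. Muscle fibres do not divide, so copying at replication does not act in their nuclei.

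The sequences below come from GRCm38 and show the 5 members that results turn on most, all lower in mD3AKO, beside Zfp933, 1 of the members closest to complete methylation in WT, with 60 bases on each side. Capitals mark the CpGs that were covered.
Galnt2 intron, which the deposited assignment lists under the overlapping gene Gm20388, chr8:124310476-124310596, plus strand: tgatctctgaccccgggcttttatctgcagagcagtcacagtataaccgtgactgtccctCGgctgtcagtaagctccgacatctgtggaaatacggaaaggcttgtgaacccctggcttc
Myo1c coding exon, chr11:75671594-75671714, plus strand: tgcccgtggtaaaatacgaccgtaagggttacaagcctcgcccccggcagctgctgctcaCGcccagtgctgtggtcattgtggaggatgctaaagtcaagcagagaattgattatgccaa
Ank2 coding exon, chr3:126944690-126944862, plus strand: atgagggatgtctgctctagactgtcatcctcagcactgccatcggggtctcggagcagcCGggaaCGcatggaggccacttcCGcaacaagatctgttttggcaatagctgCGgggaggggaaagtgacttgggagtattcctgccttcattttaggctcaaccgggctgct
Upstream of Hdac4, chr1:92202923-92203112, plus strand: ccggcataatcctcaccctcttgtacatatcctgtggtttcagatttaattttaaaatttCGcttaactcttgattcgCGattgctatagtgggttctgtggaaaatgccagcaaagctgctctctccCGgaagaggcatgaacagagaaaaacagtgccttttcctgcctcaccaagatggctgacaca
Sec22c intron, chr9:121696523-121696709, plus strand: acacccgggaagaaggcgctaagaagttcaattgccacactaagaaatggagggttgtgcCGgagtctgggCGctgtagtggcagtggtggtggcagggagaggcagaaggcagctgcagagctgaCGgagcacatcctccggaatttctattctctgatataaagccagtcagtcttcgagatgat
Zfp933 coding exon, chr4:147826279-147826439, plus strand: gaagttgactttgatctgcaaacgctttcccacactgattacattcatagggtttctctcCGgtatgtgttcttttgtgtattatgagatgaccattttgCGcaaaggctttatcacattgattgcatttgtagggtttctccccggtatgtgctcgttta
The windows show how little of a cluster was read. In Galnt2, which encodes an enzyme that starts O-linked glycosylation of proteins, 1 of 5 CpGs in the window was covered. In Myo1c, an unconventional myosin that helps glucose transporter vesicles reach the membrane, 1 of 6 was covered, in Ank2, the membrane adaptor ankyrin-B, 4 of 7, and upstream of Hdac4, a histone deacetylase, 3 of 5. In Sec22c, a protein of vesicle traffic between endoplasmic reticulum and Golgi, 3 of 7 were covered, and in the zinc finger gene Zfp933, 2 of 5.

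The same held over all members. The number of CpGs that placed a cluster in the density range is that of the genome: in 96.2% of members it equalled the CpGs of GRCm38 chained by gaps of at most 100 bp. The members spanned a median of 437 bp in the genome and held 60838 CpGs, of which 9521 (15.6%) were covered. The median member had 2 covered CpGs, 1218 members had 1, 928 had 2, 442 had 5 or more, and the most covered had 19. Of the covered CpGs, 8341 (87.6%) had a WT level of 85% or more by themselves and 7 were under 50%. In the 2505 members with 2 or more covered CpGs, the highest and lowest CpG differed in WT by a median of 7.83 points (percentage points), and by more than 20 points in 187.

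By position, the members differed from less methylated clusters of the same density. Of the 3723 members, 617 (16.6%) lay in coding exons, against 10.8% of the 8139 clusters with a WT level of 20% to under 85% (partly methylated) and 5.19% of the 3084 clusters under 20%. Only 1.15% of members lay within 1 kb of a protein-coding start site, against 2.86% and 18.2%, and the median distance was 38300 bp against 36000 and 14500 bp. Introns held 33.5% of members, untranslated regions (UTRs) 5.88%, other exons 5.02% and intergenic sequence 39%. By the deposited assignment, 1937 members belonged to a gene body alone, 50 to a promoter alone, 58 to both and 1678 to neither, and 1726 gene symbols were touched.

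Repeats were common. In 1054 members (28.3%), most of a 200-base window at the cluster was soft-masked as repeat in the reference, against 12.8% of partly methylated clusters, 1.85% of clusters with low methylation and 14.3% of all clusters. In base composition the members lay close to the partly methylated clusters: the median GC content of the window was 52% against 52.5%, and the median ratio of observed to expected CpGs was 0.505 against 0.446. The MspI motif CCGG, which reads the same on both strands, was found in 99.7% of member windows and in 99.6% of those of all clusters with 10 to 29 CpGs.

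**Figure D1:**
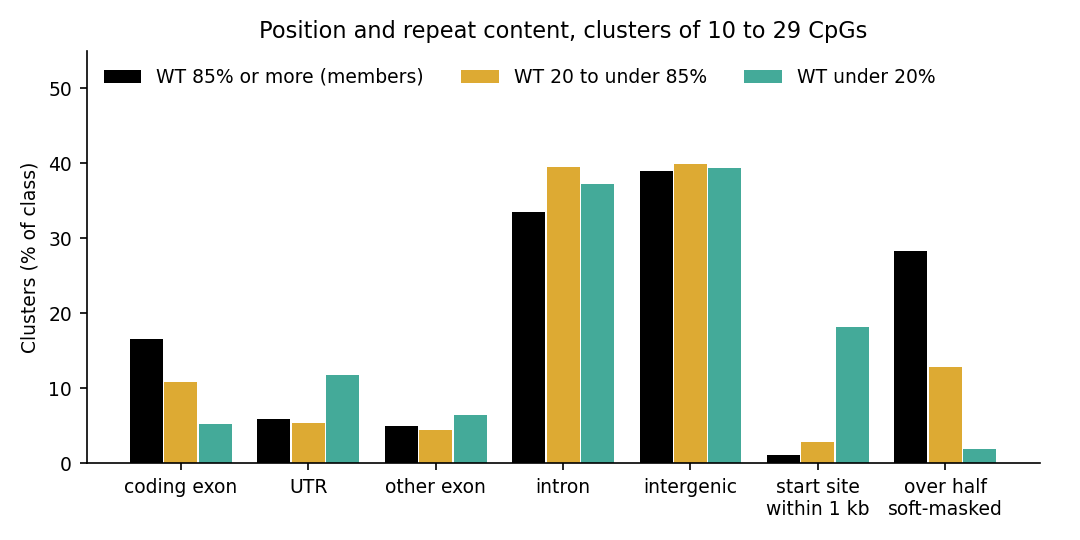
Share of clusters, in percent of each class, in each kind of sequence, within 1 kb of a protein-coding start site, and with most of a 200-base window soft-masked. Bars are the 3 classes of clusters with 10 to 29 CpGs by WT level. Members (black) had more coding exons (16.6%) and more repeat windows (28.3%) than the other classes and the fewest start sites nearby (1.15%).

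The members stayed highly methylated in mD3AKO, a little below WT. Averaged over the members, the level was 91.6% ± 0.263 in WT (SD, n = 21), with 91.1% in the lowest, 91.6% in the median and 92% in the highest sample. In mD3AKO it was 90.3% ± 0.625 (SD, n = 23), with 88.9%, 90.4% and 91.1%. All 23 mD3AKO samples lay below every WT sample, but the WT samples had chosen the members. The mean difference was -1.30 points, with -1.07 at rest and -1.29, -1.26 and -1.60 at the later times. In clusters of the same density with almost no methylation (1463 clusters under 5% over all samples), the mean level was also lower in mD3AKO, 1.85% ± 0.197 (SD, n = 23) against 2.23% ± 0.234 (SD, n = 21), and the part of incomplete bisulfite conversion, which is read as methylation, was not tested. Of the members, 3241 (87.1%) still had a level of 85% or more in mD3AKO, and 217 partly methylated clusters reached 85% there. The lowest mD3AKO level of a member was 64.7%.

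**Figure D2:**
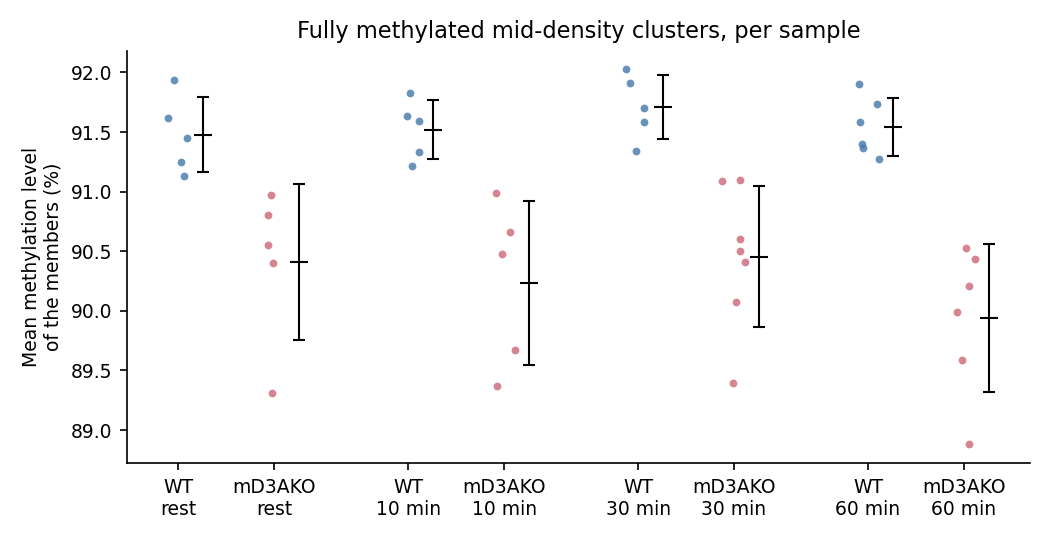
Mean methylation level of the 3723 members in each sample (percent, y axis), by genotype and time after running. Points are samples, and the bars beside them give the mean ± SD of a group. All mD3AKO points (the highest at 91.10%) lie below all WT points (the lowest at 91.14%).

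A pair of other choices of clusters were then measured, 1 blind to genotype and 1 made by WT samples other than those measured. With clusters chosen on the mean over all 44 samples, whatever the genotype, 3572 clusters were taken, of which 3460 were members. There, WT was at 91.7% ± 0.330 (SD, n = 21) and mD3AKO at 90.9% ± 0.494 (SD, n = 23). The difference was -0.75 points (two-sided permutation test, p = 1e-05, the smallest that 100000 resamples can give), and 23 of 23 mD3AKO samples lay under the WT mean and 15 below every WT sample. It was -0.795 points in the samples numbered 1 to 25 (p = 0.00018) and -0.716 in those numbered 26 to 50 (p = 0.00098, permutation tests). At single times, the exact two-sided permutation tests, adjusted over 4, gave -0.53 points at rest (adjusted p = 0.0873), and from 10 to 60 min -0.77 (0.0741), -0.71 (0.0177) and -1.02 (0.00866).

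In the second choice, the WT samples of 1 set of numbers chose the clusters and the samples of the other set were measured. The 10 WT samples numbered 26 to 50 chose 3797 clusters, in which they stood at 91.7%. In the samples numbered 1 to 25, which had no part in that choice, WT stood at 90.8% ± 0.457 (SD, n = 11) and mD3AKO at 89.9% ± 0.643 (SD, n = 11), a difference of -0.94 points (two-sided permutation test, p = 0.00061). The reverse choice took 3729 clusters and gave 91% ± 0.456 in WT (SD, n = 10) and 90.2% ± 0.58 in mD3AKO (SD, n = 12), a difference of -0.83 points (permutation test, p = 0.00178). In both cases the held-out WT samples lay under the WT samples that chose, which were also of other times. The 2 genotypes overlapped here, with 6 of 11 and 5 of 12 mD3AKO samples below every held-out WT sample. Both held-out choices used WT samples alone, so neither was blind to genotype. Their differences were larger in size than those of the first choice in the same samples (-0.795 and -0.716 points).

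**Figure D3:**
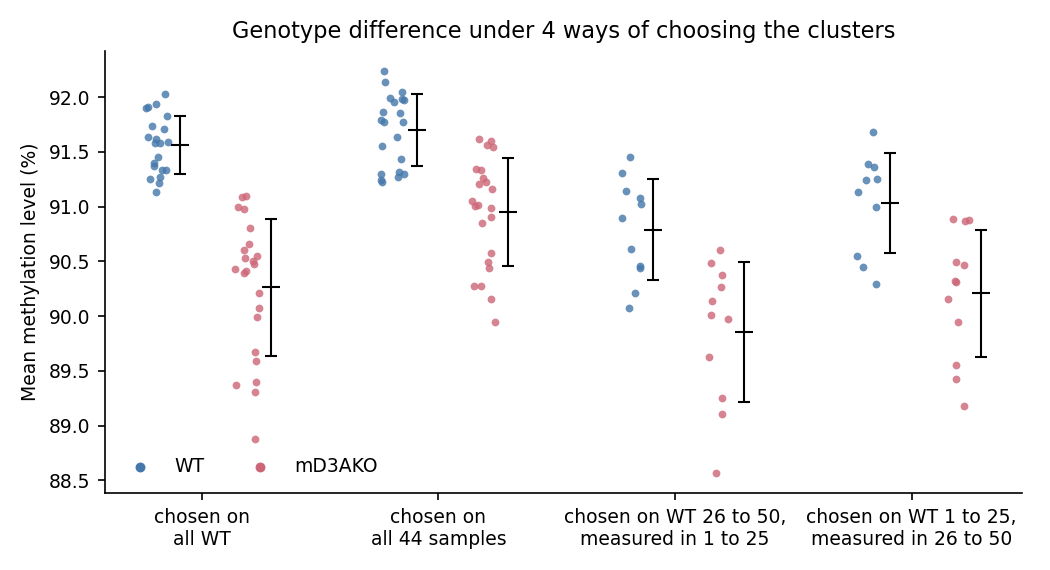
Mean methylation level per sample (percent, y axis) under 4 ways of choosing the clusters. Points are samples and bars the mean ± SD per genotype. The 2 genotypes do not overlap when all WT samples choose the clusters (a difference of -1.30 points) and overlap in the other 3 choices (-0.75, -0.94 and -0.83 points).

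Cluster by cluster, 2464 members (66.2%) were lower in mD3AKO than in WT and the median difference was -0.872 points, against 62.4% and -0.455 points over all clusters. The members ranged from -23.8 to 8.76 points. A fall of 5 points or more was seen in 382 members (10.3%) and a rise of that size in 36 (0.967%). At all 4 times the mD3AKO mean was below the WT mean in 536 members and above it in 128. The WT values that chose the members enter these differences, so nothing is read from either imbalance. Among the clusters chosen on all samples, the outermost bins of 1 point began at -14 and at 12 points. On the log2 odds scale of the edgeR fit, the median difference was -0.27 for the members, -0.21 for the clusters chosen on all samples and -0.15 over all clusters. By WT level within the members, the median was -0.85 points in the 1337 members from 85% to under 90%, -0.805 in the 1630 from 90% and -1.1 in the 756 from 95%. The WT level that made these groups is also part of the difference, so their order is a description only.

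Single members rarely passed the test. By edgeR's quasi-likelihood test of methylated against unmethylated calls, fitted on all 51038 clusters with Benjamini-Hochberg adjustment over all of them, 12 members (0.322%) passed an adjusted p of 0.05 for genotype, all lower in mD3AKO. The share over all clusters was 1.04% (532 clusters, 3 of them higher), and 1.5% of partly methylated clusters were called. Since WT values chose the members, nothing is read from their count. Among the clusters chosen on all samples, 5 of 3572 (0.14%) passed, all lower. Without an adjustment, 318 members (8.54%) had a p under 0.05, against 9.53% of all clusters. The count depended on the tool: the edgeR likelihood ratio test called 71 members (2.77% of all clusters), the quasi-binomial model 34 (2.54%), limma 30 (1.75%), and the quasi-likelihood test restricted to CpGs with at least 20 calls in every sample called 5 of 1743 members (1.5% of 28165 clusters). Every one of these members was lower in mD3AKO. At rest alone no member was called, and 0.00392% of all clusters were, while 162 members (4.35%) had an unadjusted p under 0.05, against 4.63% of all clusters.

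Of the 12 called members, 8 lay in introns, 3 in coding exons and 1 between genes, and no window of theirs was mostly repeat. A p-value is given only for clusters that the choice on all samples also took, 5 of the 12. The clusters shown above come first. In the Galnt2 intron (chr8:124310536, 1 covered CpG), WT samples had a lowest level of 53.8%, a median of 97.9% and a highest of 100%, and mD3AKO samples 25.5%, 72.9% and 100%. The genotypes overlapped, and 20 of 23 mD3AKO samples lay under the WT mean of 93.3% ± 11.2 (SD, n = 21). Their own mean was 69.5% ± 19.3 (SD, n = 23), a difference of -23.8 points.

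In Myo1c (chr11:75671654, 1 covered CpG in a coding exon), WT ran from 72.7% through a median of 97.1% to 100% and mD3AKO from 50.6% through 67.6% to 97.6%. Here 13 of 23 mD3AKO samples lay below every WT sample. The mean was 92.2% ± 8.53 (SD, n = 21) against 69.5% ± 13.6 (SD, n = 23). The Ank2 cluster (chr3:126944750-126944802) had 4 covered CpGs in a coding exon and levels of 68.7%, 92.1% and 100% in WT (lowest, median, highest) and 30.7%, 75.9% and 99.6% in mD3AKO. Its mean was 91% ± 7.54 (SD, n = 21) against 74% ± 13.3 (SD, n = 23). All 4 of its CpGs were lower, by -22.8, -14.8, -9.75 and -14.6 points in genome order.

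The cluster upstream of Hdac4 (chr1:92202983-92203052, -7318 bp from the start site) was the only called member in which all 23 mD3AKO samples lay below the WT mean. WT samples ran from 70.7% through 85.8% to 96.2%, and mD3AKO samples from 37.5% through 72.3% to 82.6%. The means were 86% ± 7.83 (SD, n = 21) and 69.7% ± 11.3 (SD, n = 23), and its 3 CpGs differed by -18, -11 and -19.2 points. In Sec22c (chr9:121696583-121696649), WT ran from 62.5% through 87.9% to 99% and mD3AKO from 32.1% through 75.5% to 88.4%, and the means differed by -13.8 points. Its 3 CpGs differed in WT itself, at 79.7%, 96% and 84.4%.

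The other 7 called members included smaller differences. In Slc10a7, a solute carrier linked to skeletal dysplasia, 1 intronic CpG (chr8:78727729) stood at 86.9% ± 10.6 in WT (SD, n = 21) and 66.4% ± 20.9 in mD3AKO (SD, n = 23), with as few as 8 calls in a sample. In Ptgfrn, a surface glycoprotein with immunoglobulin domains, 2 intronic CpGs (chr3:101068704-101068717) stood at 86% ± 11.9 and 70% ± 13.4. In Ldlrad3, a membrane receptor with LDL receptor class A domains, 1 intronic CpG (chr2:102142974) stood at 96% ± 6.55 and 82.7% ± 15.7. The adjusted p by edgeR's quasi-likelihood test was 0.00801 in Ldlrad3. The other 4 called members, named here after their values were seen because they complete the 12, were in Ccdc171 (-9.67 points), in the scaffold gene Magi1 (-5.74), in the glycosyltransferase gene Galnt10 (-5.2) and in Dnmbp, which encodes an activator of the small GTPase Cdc42 (-2.86). Their adjusted p-values by edgeR's quasi-likelihood test were 0.0216, 0.0463, 0.0405 and 0.0311. By the quasi-binomial model the calls of Ldlrad3 (adjusted p = 0.105), Magi1 (0.0819) and the Galnt2 cluster were lost. By edgeR's quasi-likelihood test with CpGs of at least 20 calls, those of Galnt10 (adjusted p = 0.125), Dnmbp (0.103), Ank2 and Ptgfrn were lost.

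The Dnmbp cluster (chr19:43868768-43868869, coding exon) was the most precisely measured of the 12, with 8 covered CpGs and 590 to 3320 calls per sample. WT samples ran from 91.3% through 95.6% to 98.5% and mD3AKO samples from 88.4% through 93.3% to 96.2%. The means were 95.7% ± 1.84 (SD, n = 21) and 92.8% ± 2.38 (SD, n = 23). Each of its 8 CpGs was lower in mD3AKO, by -1.70 to -7.73 points. The call rested on these same CpGs, and all covered CpGs were lower in 654 (26.1%) of the 2505 members with 2 or more. So nothing is read from their shared direction here, in Ank2 or upstream of Hdac4. Of the 12, 11 were lower at all 4 times, but the contrast that called them averaged these same times, so nothing is read from that count. WT and mD3AKO samples overlapped in all 3723 members. The share over all clusters is not given here, so the overlap is a description only.

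**Figure D4:**
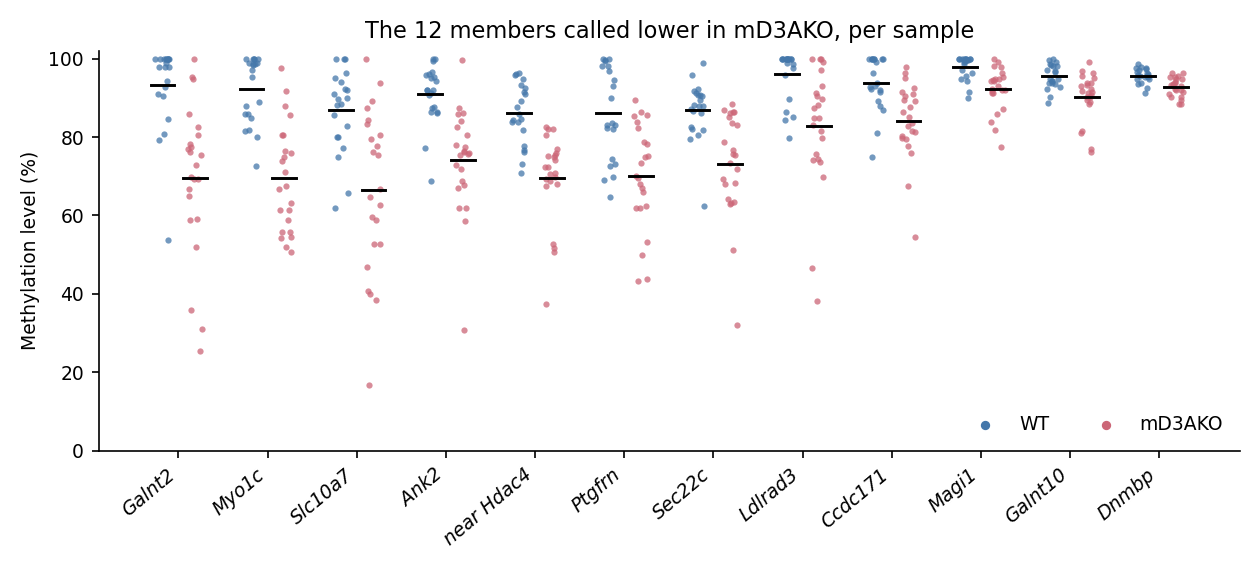
Methylation level (percent, y axis) of the 12 members called lower in mD3AKO, in order of the difference, with 1 point per sample and a line at the mean of each genotype. The Galnt2 cluster is the one listed under Gm20388. The genotypes overlap in every cluster. The SD over mD3AKO samples is highest in Slc10a7 (20.9 points, 1 covered CpG) and lowest in Dnmbp (2.38, 8 covered CpGs). It does not follow the number of covered CpGs throughout, with 13.3 in Ank2 (4) and 13.6 in Myo1c (1).

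Large differences were not always called by the quasi-likelihood test. In Gpd2, the mitochondrial glycerol-3-phosphate dehydrogenase, 1 intronic CpG (chr2:57269699) had levels of 64.2%, 90.9% and 100% in WT (lowest, median, highest) and 0%, 67.9% and 99% in mD3AKO. The mean difference was -23.4 points, and the sample at 0% had 32 calls, which allow a level of up to 9.38%. This member was called by the likelihood ratio test, the quasi-binomial model and limma. In Rtkn2, 2 intronic CpGs (chr10:68052150-68052197) stood at 88% ± 10.7 in WT (SD, n = 21) and 67.9% ± 28 in mD3AKO (SD, n = 23), with 1 mD3AKO sample at 0% of 64 calls, which allow up to 4.69%. The limits cover counting error only.

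The 5 largest rises were smaller, none was called, and each rested on 1 covered CpG. They were in introns of Fbf1 (8.76 points) and Gm11077 (7.86), in a coding exon of Polr2a, the large subunit of RNA polymerase II (7.41), and between genes nearest to Sulf2 (7.52) and Ppp6c (7.47). The SD over WT samples was 13.8 to 25.4 points and that over mD3AKO samples 4.24 to 10.6. In Fbf1 the levels were 0%, 96.4% and 100% in WT (lowest, median, highest) and 82.5%, 98.2% and 100% in mD3AKO. The WT sample at 0% had 9 calls, which allow up to 33.3%.

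Some members lay at the ceiling of the measure. Among the highest were those in Dph6 and near Mvb12b (99.9% in WT both), near Gadl1 (99.8%), and in Zfp933 and Kcng3 (99.7%). In the Dph6 intron (chr2:114555500), WT samples ran from 97.9% to 100% with a median of 100%, and mD3AKO samples from 53.2% to 100% with a median of 100%, with 6 of 23 below the WT mean and a mean difference of -5.12 points. Near Gadl1 (chr9:115783064), 10 of 23 mD3AKO samples lay below every WT sample, the mean was 95% ± 7.45 (SD, n = 23) against 99.8% ± 0.542 (SD, n = 21), and the adjusted p was 0.0594 by edgeR's quasi-likelihood test and 0.00577 by its likelihood ratio test. The Zfp933 cluster, shown above, differed by -1.27 points and that in Kcng3, a potassium channel subunit, by -0.114.

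At the other end of the range, clusters on both sides of the cut-off were alike in level. The 3 members just inside it, near Rpia, Bckdhb and Dapl1, and the 3 clusters just outside, in Heatr4, Gusb and Slc39a11, all had a WT mean that rounds to 85%. Their SDs over WT samples were 10.6, 7.8 and 6.75 points inside and 8.66, 21.1 and 11.8 outside. The differences were -0.719, -0.866 and -0.739 points inside and -0.637, -9.45 and -1.59 outside.

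Spread between samples followed the number of covered CpGs. The median SD over WT samples was 10.3 points in members with 1 covered CpG, 7.74 with 2, 6.08 with 3 or 4 and 4.35 with 5 or more. The median difference between genotypes was -1.33, -1.12, -0.707 and -0.558 points in the same order. These differences use the WT samples that chose the members, so they are descriptions and nothing is read from their order. The largest SDs belonged to single CpGs in Gde1 (25.6 points) and Gm11077 (25.4), and near Cdh19 (24.5) and Map3k7 (24.4), where the WT median was 99.1% to 100%. The lowest WT sample was at 7.32% in Gde1, at 17.1% near Map3k7 and at 0% of 13 calls near Cdh19, which allow up to 23.1%. The smallest SDs, 0.382 to 0.542 points, were those of Mvb12b, Zfp933, Dph6 and Gadl1.

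By position, the median difference was -1.25 points in introns, -1.18 in UTRs, -0.979 in coding exons, -0.965 in other exons and -0.54 between genes. These medians use the WT samples that chose the members and were not tested, so nothing is read from their order. Averaged over the 1054 members in repeats, the level was 91.8% ± 0.373 in WT (SD, n = 21) and 91.2% ± 0.664 in mD3AKO (SD, n = 23), -0.57 points apart, and 10 of 23 mD3AKO samples lay below every WT sample. In the 2669 other members it was 91.5% ± 0.257 and 89.9% ± 0.635, -1.59 points apart, with all 23 below. This split was made after the values were seen and was not tested. The WT samples chose the members of both parts, so nothing is read from the separation or from the size of these differences. The medians of the lowest calls of a member in any sample were 44 in repeats and 36 in the others.

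The deepest member lay in such sequence. It was the Gm10800 cluster (chr2:98666503-98667255, coding exon), with a wholly soft-masked window, 19 covered CpGs and 46.6% to 64.9% of all member calls of a sample. It stood at 92.2% ± 1.11 in WT (SD, n = 21) and 92.3% ± 1.24 in mD3AKO (SD, n = 23). The part of reads from other copies of the sequence was not tested. Calls pooled over all members differed by -0.33 points between genotypes with this cluster and by -0.97 without it.

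In percentage points the partly methylated clusters lost more than the fully methylated ones, and on the odds scale the difference was not detected. With both classes chosen on all samples, the genotypes differed by -2.54 points in the 8148 partly methylated clusters and by -0.75 in the 3572 fully methylated ones, -1.79 points apart (two-sided permutation test, p = 0.00794). On the scale of log2 odds of methylated to unmethylated calls, with 1 added to each count, the differences were -0.21 and -0.17, -0.04 apart (permutation test, p = 0.506). In the edgeR fit the order was the other way. Its median was -0.14 in the 8139 clusters partly methylated by WT level, against -0.21 in the 3572 chosen on all samples. The comparison by permutation was added after the values were seen.

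**Figure D5:**
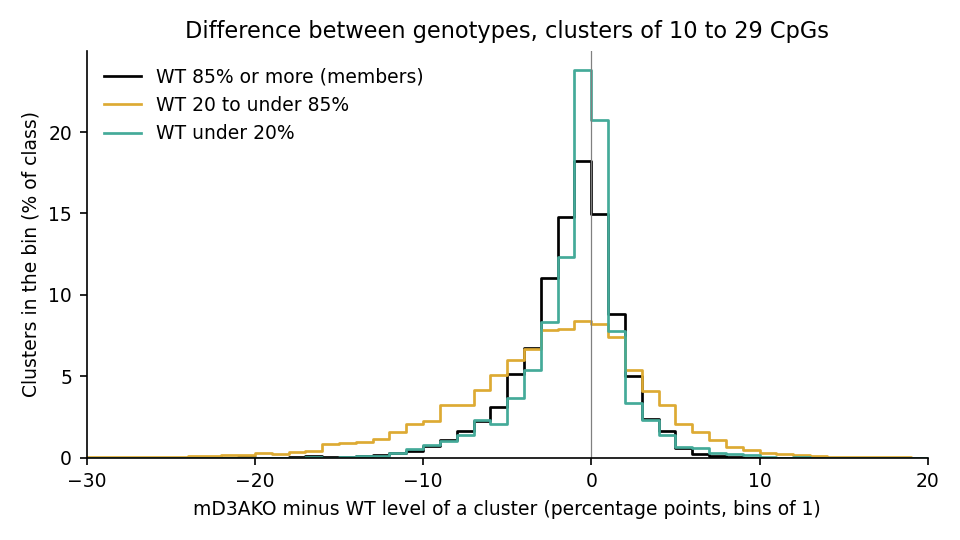
Distribution of the difference in level between mD3AKO and WT (percentage points, bins of 1) in the 3 classes of clusters with 10 to 29 CpGs, as percent of each class. The members (black) centre at a median of -0.872 points with a longer tail of falls (10.3% fell by 5 points or more) than of rises (0.967%), and the partly methylated clusters spread more widely. The WT values that chose the members enter this difference, so nothing is read from the unequal tails.

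Genes of muscle were represented among the members without a common direction. Of 48 clusters of this density in sarcomere and muscle structure genes, 10 (20.8%) were members, in 7 genes, against 24.9% of all clusters of this density. No member of the 8 gene lists was called by the quasi-likelihood test, which called 0.322% of all members and 1.04% of all clusters, so nothing is read from that count. Their median difference was 0.227 points, against -0.872 over all members, and 4 of 10 were lower. Among those with most CpGs were members in Flnc (96.5% ± 5.55 in WT and 96.3% ± 8.6 in mD3AKO), filamin C of the Z-disc, and in Ttn (85.7% ± 12.4 and 88.3% ± 8.77), the molecular spring titin (SD, n = 21 and 23). The exercise and metabolic list had 1 member, an intron of Tbc1d4, the Akt substrate that restrains glucose transporter traffic, at 90.9% ± 4.93 and 87.8% ± 5.04 (adjusted p = 0.441, edgeR).

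In the longer lists, of matrix, surface signalling and zinc finger genes, the shares of members (21.8%, 22.3% and 23.8%) lay near that of all clusters with 10 to 29 CpGs (24.9%). Of 87 clusters in extracellular matrix and collagen genes, 19 were members, 13 of them lower, with a median of -1.84 points and a range of -6.66 to 3.18. The largest fall of these was in an intron of Fn1, fibronectin (88.7% ± 6.25 in WT, 82% ± 8.28 in mD3AKO, adjusted p = 0.35 by edgeR's test), and Agrn, the proteoglycan agrin of the neuromuscular junction, stood at 95.4% ± 5.34 and 92.7% ± 5.06. The surface signalling and channel list had 27 members of 121, 19 of them lower, with a median of -1.55 points. Among them were Lrp1b (-4.56), Notch2 (-2.79) and Adgrv1 (0.441). The zinc finger list had 31 members of 130, 19 lower, with a median of -0.852 points, and those with most CpGs were in Zfp14 (-8.18), Zfp839 (-3.81) and Zfp180 (0.882).

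Germline genes, which are often silenced by promoter methylation in somatic cells, had 4 members of 12. The Tex14 intron, with 5 covered CpGs (chr11:87482827-87482855), stood at 90.7% ± 4.74 (SD, n = 21) and 83.5% ± 10.5 (SD, n = 23), and 7 of 23 mD3AKO samples lay below every WT sample (adjusted p = 0.245, edgeR). Piwil4, of the piRNA pathway, stood at 90.9% ± 3.57 and 90.7% ± 3.93, and Tex101 at 87.7% ± 4.74 and 88.5% ± 5.96. Imprinted genes, in which 1 parental allele is methylated over control regions, had 6 members of 17, with a median difference of 0.576 points. The member assigned to the Igf2 promoter stood at 97.7% ± 3.99 and 99.3% ± 2.11, a coding exon of Trappc9 at 95.3% ± 2.94 and 95.5% ± 3.13, and a UTR of Peg3 at 89% ± 7.93 and 91.6% ± 6.45. Of the DNA methylation machinery, 2 of 11 clusters were members, both in coding exons of Tet2, which oxidises methylcytosine, at 87.4% ± 10 and 88.4% ± 9.98 in the first and 97.1% ± 6.2 and 92.3% ± 14 in the second.

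Running did not detectably change the level of the members. In WT, from rest to 60 min, it was 91.5% ± 0.317 (SD, n = 5), 91.5% ± 0.247 (n = 5), 91.7% ± 0.271 (n = 5) and 91.5% ± 0.242 (n = 6). In mD3AKO it was 90.4% ± 0.654 (SD, n = 5), 90.2% ± 0.686 (n = 5), 90.5% ± 0.592 (n = 7) and 89.9% ± 0.619 (n = 6). The ranges of the 4 times overlapped in both genotypes. A permutation test of the F statistic over the 4 times gave p = 0.544 in WT and p = 0.495 in mD3AKO, and that of the interaction of genotype and time gave p = 0.649. Against rest, the differences ran from -0.47 points (mD3AKO at 60 min) to 0.23 points (WT at 30 min), with adjusted p-values of 0.762 to 0.898 over the 6 exact permutation tests.

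No single member passed the quasi-likelihood test for time (0% of all clusters did) or for the interaction (0.00196%, 1 cluster, did). With no adjustment, 114 members (3.06%) had a p under 0.05 for time and 96 (2.58%) for the interaction, against 2.87% and 2.77% of all clusters. Limma and the quasi-binomial model called no member for either. The edgeR likelihood ratio test called 3 members for time (0.0196% of all clusters) and 1 for the interaction (0.0137%). The 3 were in Fbxo25, near Rai14 and in Spata16, which also had the lowest unadjusted p in the quasi-likelihood test (4.53e-05, 0.000447 and 0.000587). Fbxo25 encodes a component of a ubiquitin ligase, and in its intron (chr8:13934272-13934309) the means at rest, 10, 30 and 60 min were 90.7%, 100%, 92.8% and 94% in WT and 89.9%, 98.2%, 95% and 93.4% in mD3AKO, highest at 10 min in both genotypes.

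At the CpG near Rai14 (chr15:10721089, in an exon of 4930556M19Rik) the means were 90.9%, 88.6%, 72.3% and 98.9% in WT and 92.6%, 82.1%, 81.2% and 99.5% in mD3AKO, lowest at 30 min in both, with SDs at 30 min of 19.7 and 26.4 points. In the Spata16 intron they were 93.3%, 91%, 90.3% and 84.9% in WT and 95.2%, 99.9%, 84.5% and 91.1% in mD3AKO, with the lowest mean at different times. The interaction call was in St8sia1, a sialyltransferase of ganglioside synthesis (chr6:142958719-142958746): WT stood at 88.6%, 100%, 88.1% and 91.8% and mD3AKO at 91.5%, 81.7%, 91% and 85.9%, so the genotypes were farthest apart at 10 min. The next members by unadjusted p of the interaction were in Ptprb (0.00191) and nearest to Zdhhc25 (0.00374), each with 1 covered CpG.

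The level of the members did not detectably differ by sex (-0.24 points, males minus females, group means removed, two-sided permutation of sex within groups, p = 0.106). The sign of the difference turned on the log2 scale, and the test passed when either of 2 samples was left out.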

How the data were processed

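Counts of methylated and unmethylated calls per CpG in 44 samples were used as deposited by the authors, without normalization. The authors trimmed the reads with Trim Galore 0.4.0 (cutadapt 1.9.1), aligned them to mm10 (GRCm38) with Bismark 0.18.1, added both strands, and kept autosomal CpGs with at least 8 calls in every sample. Clusters and gene assignments were theirs too. The other 6 samples were not used here.

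Calls were summed per cluster. The members, gene lists and named clusters were chosen with earlier results of these data known. Named clusters were the 6 highest in WT, 3 on each side of the cut-off, up to 8 called, the 5 largest falls and rises, 4 with the largest and smallest SD, 3 with the lowest p for time and interaction, and up to 3 per gene list, of which 2 clusters are not reported here. Clusters were tested with edgeR 4.0.16 (quasi-likelihood, 8 groups, 1 coefficient per sample). The alternatives were its likelihood ratio test, limma 3.58.1 (pseudocount 1) and a quasi-binomial model. All but the likelihood ratio test were tried on simulated data. Sample means were tested by permutation (100000 resamples, or exact). Symbols came from GENCODE M21 (13708 of 13722 identifiers). RRBS reads carry no molecular identifiers, so intervals and limits cover counting error only.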

Additional observations from a re-analysis of the deposited data

Results flagged for a closer look

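In 8 of 80 groups of samples examined (the 8 groups for the mean level of the members and of the clusters chosen on all samples, and for the 8 called clusters with the largest differences), 1 sample stood apart from the rest of its group by its share of the range. Chance gives about 1 in 20, a share that does not hold for groups near 100%, such as those of Ldlrad3. None concerned the mean levels. Intervals are 95% Wilson intervals of that sample's calls.

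In the Galnt2 cluster listed under Gm20388, WT 10 min sample 35 was at 53.8% (26 calls, 35.5% to 71.2%), with the next WT sample of its group at 97.9%. In Myo1c, WT 60 min sample 18 was at 80% (50 calls, 67% to 88.8%) with the next at 95.3%, and mD3AKO rest sample 2 was at 97.6% (83 calls, 91.6% to 99.3%), far above the next at 61.5%. In Ank2, mD3AKO 60 min sample 6 was at 58.7% (387 calls, 53.7% to 63.5%) with the next at 75.7%. In the cluster upstream of Hdac4, mD3AKO 60 min sample 23 was at 37.5% (301 calls, 32.3% to 43.1%) with the next at 68.9%. In Ldlrad3, WT 10 min sample 49 was at 98.6% (70 calls, 92.3% to 99.7%) where the other 4 were at 100%, so that 1 unmethylated call was enough to set it apart. The same cluster had WT 30 min sample 38 at 95.7% (46 calls, 85.5% to 98.8%) and WT 60 min sample 25 at 86.4% (59 calls, 75.5% to 93%).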

How the results depend on the processing

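The difference of -1.30 points between genotypes was -0.332 with calls pooled over the members, -0.748 with clusters chosen on all samples and -0.226 on the log2 scale of methylated to unmethylated calls, and it kept its direction in every alternative tried, from -1.34 to -1.24 as each sample was left out in turn. Held-out choices, added after the data were seen, gave -0.936 and -0.826. The 12 members called for genotype became 71 by the likelihood ratio test, 34 by the quasi-binomial model, 30 by limma (24 to 35 with each sample left out), 5 with CpGs of at least 20 calls and 0 at rest alone. All 12 were among the 71 and the 30, 9 were among the 34, and 3 were among the 5, where 7 of the 12 could be tested. Time and interaction calls stayed at 0 with each sample left out (limma), and the likelihood ratio test called 3 and 1. As each sample was left out, the F of time ran from 0.268 to 1.51 in WT and from 0.328 to 1.53 in mD3AKO, and that of the interaction from 0.215 to 1.33, none past the threshold. Sex ran from -0.318 to -0.175 points, and passed at -0.318 (permutation p = 0.0276) without mD3AKO 10 min sample 28 and at -0.313 (p = 0.0264) without mD3AKO 60 min sample 6. It turned to 0.0343 on the log2 scale. A cut-off of 90% left 2386 members and one of 80% 4788. The causes of these changes were not tested. No paired analysis was possible because the sample numbers are not shared between groups. With a median of 2 covered CpGs and 39 calls in a member's lowest sample, the precision of most single members was low.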
